A study of Mus musculus with 22 samples.

Results

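The ectonucleotidases of extracellular ATP were followed here across lungs exposed to Mitsui7, a multiwalled carbon nanotube. They comprised 10 genes, the nucleoside triphosphate diphosphohydrolases Entpd1, Entpd2, Entpd3, Entpd4, Entpd5, Entpd6 and Entpd8, the 5′-nucleotidase Nt5e, and the nucleotide pyrophosphatases Enpp1 and Enpp3. Members were taken by name, through the RefSeq accession of each array probe. They were read by 12 of 55681 probes, and the arrays named 20018 genes in all. Female C57BL/6 mice aged 8 weeks received a single intratracheal instillation of 18, 54 or 162 µg of Mitsui7, or of the vehicle, saline containing lavage fluid of other mice, which every group received. RNA of the right lung, taken 24 hours post-exposure, was analysed from 5 control mice, 6 at 18 µg, 5 at 54 µg and 6 at 162 µg. Each lung was labelled with Cy5 and hybridized to an array together with a reference RNA of 11 mouse cell lines labelled with Cy3. Values are therefore log2 ratios of lung to reference, and levels of different genes cannot be ranked against each other.

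Cells release ATP when they are stressed or injured, and extracellular ATP acts on P2X and P2Y receptors as a danger signal. Ectonucleotidases on the cell surface remove it stepwise: the Entpd enzymes (CD39 is the product of Entpd1) and the Enpp enzymes cleave ATP and ADP to AMP, and CD73, the product of Nt5e, turns AMP into adenosine. Adenosine then acts on its own receptors, which in the lung are known for restraining inflammation and for controlling airway and vascular tone.

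The promoter sequences of the genes on which the results turn are shown first, as the stretches upstream of the start sites of Entpd8, Nt5e and Entpd1. RefSeq promoters of the GRCm38.p6 build were found for 9 of the 10 members, and Entpd1 and Entpd6 each had more than 1. Each sequence is 250 bases long, reads 5′ to 3′ on the plus strand and ends at the base before the start site. The Entpd8 stretch lies inside the bounds given below for that gene, so the sequence before its outermost start was not searched. Capitals mark the GC box GGGCGG on either strand.
Entpd8, chr2:25080073-25080322: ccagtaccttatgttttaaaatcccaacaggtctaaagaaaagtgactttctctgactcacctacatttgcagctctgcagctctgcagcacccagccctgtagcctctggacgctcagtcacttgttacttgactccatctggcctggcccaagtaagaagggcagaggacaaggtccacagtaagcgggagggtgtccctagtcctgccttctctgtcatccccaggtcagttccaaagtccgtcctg
Nt5e, chr9:88327359-88327608: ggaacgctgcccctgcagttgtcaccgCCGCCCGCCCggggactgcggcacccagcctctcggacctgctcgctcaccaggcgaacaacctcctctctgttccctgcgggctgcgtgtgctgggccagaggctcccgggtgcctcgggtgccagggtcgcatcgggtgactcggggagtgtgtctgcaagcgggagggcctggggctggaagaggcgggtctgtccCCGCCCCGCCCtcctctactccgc
Entpd1 first start site, chr19:40612116-40612365: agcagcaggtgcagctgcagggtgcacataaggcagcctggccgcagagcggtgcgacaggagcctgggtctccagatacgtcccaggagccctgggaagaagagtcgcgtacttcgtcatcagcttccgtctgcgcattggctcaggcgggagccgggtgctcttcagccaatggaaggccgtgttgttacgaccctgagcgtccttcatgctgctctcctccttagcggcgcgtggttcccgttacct
Entpd1 second start site, chr19:40659520-40659769: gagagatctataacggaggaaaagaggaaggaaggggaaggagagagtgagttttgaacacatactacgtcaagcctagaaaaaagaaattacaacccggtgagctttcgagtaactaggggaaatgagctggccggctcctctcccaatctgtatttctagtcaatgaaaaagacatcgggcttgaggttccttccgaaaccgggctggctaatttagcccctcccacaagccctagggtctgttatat
The GC box matched 4 times in the Nt5e promoter, where neighbouring matches overlap, and not in those of Entpd8 and Entpd1. It was present in 3 of the 11 promoters of members and in 32.7% of 32851 mouse promoters of this length. The TATA box TATAAA was present in 1 of 11, that of Enpp3, and in 12.4% of all promoters. The core of the hypoxia response element, ACGTG, was present in 6 of 11 and in 16.6% of all promoters, both strands being searched. Both promoters of Entpd6 were among these 6, which are therefore not all of different genes. None of the sequences printed holds either of these last motifs.

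The arrays lay on 7 slides, of which 2 held no control. On control arrays 70.5 to 77.7% of probes had a Cy5 signal above the negative control probe. The range was 56.8 to 77.9% for lungs given 18 µg, 58.1 to 78.9% for those given 54 µg and 52.1 to 83.5% for those given 162 µg. The 4 arrays under 60% (replicate 6 at 18 µg, replicate 3 at 54 µg, and replicates 4 and 6 at 162 µg) all lay on the slides without a control. A fit without them therefore equals a fit on the slides with a control. The slide term takes up the single array that remains on each other slide. Lung markers were high against the reference in control lungs, with a log2 ratio of 7.53 ± 0.24 (SD, n = 5) for surfactant protein C (Sftpc) and 8.49 ± 0.36 (SD, n = 5) for the club cell secretoglobin Scgb1a1. The heart muscle gene Myh6 varied widely, at 4.57 ± 2.72 (SD, n = 5).

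Of the 10 members, 9 were expressed, meaning that in some group 80% or more of the arrays had a Cy5 signal above the negative controls. A gene was called changed at a Benjamini-Hochberg adjusted p of at most 0.05 and at least 1.5-fold in limma, with dose and slide in the model. At 18 µg, 1 of the 9 expressed members was called, Entpd8, which was lower, and 1.46% of all expressed probes were called. At 54 µg Entpd8 was again the member called, against 0.23% of all expressed probes. At 162 µg Entpd8 was lower and Entpd1 higher, 2 of 9, against 5.02% of all expressed probes. Compared directly, lungs at 162 µg were higher than lungs at 18 µg in Entpd1, Entpd3 and Nt5e, 3 of 9, against 3.43% of all expressed probes. Counted as genes by their brightest probe, as members were, 104 of 16434 were called higher and 234 lower at 18 µg. At 54 µg 36 and 22 were, at 162 µg 545 and 580, and between 162 and 18 µg 547 and 271. The median log2 fold change of the expressed members was -0.41, -0.10 and 0.12 at 18, 54 and 162 µg, and that of all expressed genes was -0.02, -0.01 and -0.01. These comparisons with control share the same 5 control lungs.

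Entpd8, a triphosphate diphosphohydrolase of the cell surface that is best known from liver and intestine, was lower at every dose. Its gene lies on chromosome 2 (GRCm38.p6, chr2:25079296-25085719). In the 5 control lungs its log2 ratio was 2.73, 2.57, 2.13, 1.13 and 1.59. At 18 µg it ran from 0.31 through a median of 0.75 to 1.92, and the 5 lungs at 54 µg had 1.20, 0.93, 0.85, 0.38 and 0.56. At 162 µg the lowest value was 0.01, the median 0.56 and the highest 0.75. All 6 lungs at 162 µg lay below every control, whereas at the lower doses 4 of 6 and 4 of 5 did, so that those groups overlapped the controls, the lowest of which was replicate 4.

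The log2 fold change of Entpd8 was -0.94 (SE 0.17, adjusted p = 0.0163 in limma) at 18 µg. It was -1.09 (SE 0.18, adjusted p = 0.0181) at 54 µg and -1.33 (SE 0.17, adjusted p = 0.000282) at 162 µg, a 2.52-fold decrease. The step from 18 to 162 µg, -0.39 (95% interval -0.72 to -0.07), did not pass the threshold (adjusted p = 0.197). Within slides that held a control, Entpd8 was below its slide's control in 11 of 11 exposed lungs, with median differences of -0.78, -1.21 and -1.21 at 18, 54 and 162 µg. These 11 differences reuse 5 control lungs, and the share of all genes reaching 11 of 11 was not computed. The treated lungs were dim at this probe: its signal was well above background on 5 of 5 control arrays and on 5 of 6, 4 of 5 and 4 of 6 arrays at the rising doses. Without the 4 arrays of low signal the change was -0.89, -1.24 and -1.27, and all calls held. Without a slide term the calls at 18 µg (-1.09, adjusted p = 0.0672) and 54 µg (-1.25, adjusted p = 0.0980) were lost. The call at 18 µg was also lost without control replicate 1 (-0.82), control replicate 5 (-0.96) or replicate 5 at 18 µg (-0.93).

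Entpd1 encodes CD39, the main ATP-removing enzyme of vascular endothelium and of many leukocytes, and was called higher at 162 µg. The gene spans chr19:40612366-40741602. Controls had log2 ratios of 2.30, 3.08, 3.02, 2.10 and 2.30. At 18 µg the lowest was 1.49, the median 2.53 and the highest 3.47, and the lungs at 54 µg had 2.86, 3.32, 2.10, 3.23 and 2.80. At 162 µg Entpd1 ran from 2.02 through 3.53 to 3.98. The groups overlapped at every dose: at 162 µg, 4 of 6 lungs lay above all controls and 1, replicate 6, below all of them.

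In limma the log2 fold change of Entpd1 was 0.24 (SE 0.22, adjusted p = 0.676) at 18 µg, 0.76 (SE 0.23, adjusted p = 0.262) at 54 µg and 1.05 (SE 0.22, adjusted p = 0.00825) at 162 µg, a 2.08-fold increase. On the slides that held a control, 11 of 11 exposed lungs were above it, by a median of 0.45, 0.56 and 0.87 at the 3 doses. Lungs of 1 slide shared its control, and the share of all genes reaching 11 of 11 was not computed. The other 6 exposed lungs, replicate 6 at 162 µg among them, lay on slides without a control. The call at 162 µg depended on the treatment of slides and the scaling. It was lost without a slide term (0.76, adjusted p = 0.281), with slide as a random block (0.88, adjusted p = 0.0829) and with median centring (0.85, adjusted p = 0.0658). Against 18 µg, Entpd1 at 162 µg was higher by 0.81 (SE 0.20, adjusted p = 0.0304). That call was lost in 9 of 22 fits that left out 1 array. It was also lost in the Cy5 channel alone (0.54, adjusted p = 0.0659), in the deposited table, with median centring, without normalization, without a slide term and with slide as a random block.

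**Figure D1:**
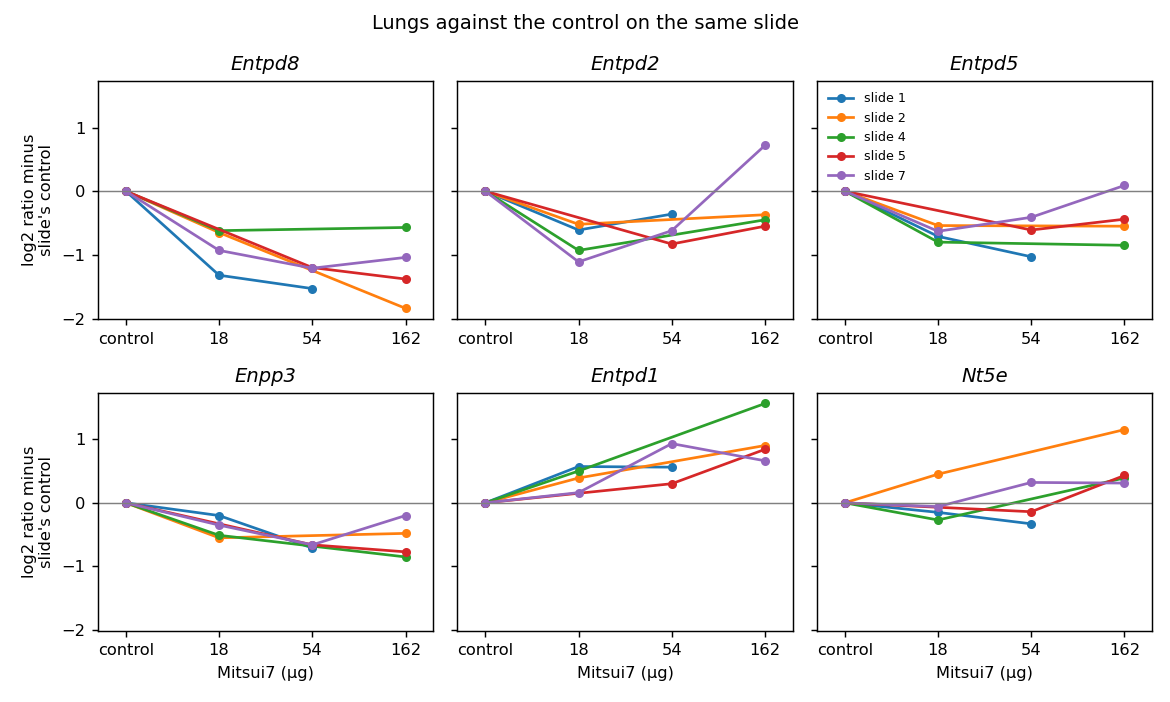
Difference in log2 ratio between each exposed lung and the control lung on the same slide (vertical axis), by dose in µg (horizontal axis), for 6 members. Each line is 1 slide, whose lungs share 1 control, and controls sit at 0. Entpd8 and Enpp3 lie below 0 and Entpd1 above 0 in the 11 of 11 exposed lungs whose slide held a control.

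Nt5e makes CD73, the enzyme that produces adenosine from AMP, and its values rose between the lowest and the highest dose. It lies at chr9:88327609-88372089. Its log2 ratio was 2.50 ± 0.23 (SD, n = 5) in controls. Lungs given 18 µg had 2.30 ± 0.28 (SD, n = 6), those given 54 µg 2.59 ± 0.45 (SD, n = 5), and those given 162 µg 3.11 ± 0.25 (SD, n = 6). At 162 µg its lungs ran from 2.75 through 3.14 to 3.44, all above the highest lung at 18 µg, 2.74, and 5 of 6 were above every control. The share of all genes whose lungs at 162 µg did not overlap those at 18 µg was not computed. Against 18 µg the difference was 0.71 (SE 0.16, adjusted p = 0.015 in limma). It was 0.56 (adjusted p = 0.0689) without the 4 arrays of low signal and 0.65 (adjusted p = 0.0593) without replicate 1 at 162 µg, neither of which was called. Against control it was 0.56 (SE 0.17, adjusted p = 0.0603), a value that did not pass the threshold. Over the alternatives this value ran from 0.20 without normalization and 0.22 with median centring to 0.77 in the Cy5 channel alone (adjusted p = 0.018). It was called there, with the replicate block (0.64, adjusted p = 0.0362) and with slide as a random block (0.59, adjusted p = 0.0328).

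Entpd3, whose product cleaves both ATP and ADP at the cell surface, passed the threshold between 18 and 162 µg and did not pass it against control. Control lungs had a log2 ratio of 1.99 ± 0.34 (SD, n = 5). With 18 µg it was 1.19 ± 0.55 (SD, n = 6), with 54 µg 1.77 ± 0.31 (SD, n = 5) and with 162 µg 2.23 ± 0.86 (SD, n = 6). Lungs at 162 µg were higher than those at 18 µg by 0.93 (SE 0.24, adjusted p = 0.0344 in limma), and 4 of 6 lay above every lung at 18 µg. This call was lost in 11 of 22 fits that left out 1 array. It was also lost in the deposited table (0.70, adjusted p = 0.141), with median centring (0.81, adjusted p = 0.114), with normexp background correction (0.81, adjusted p = 0.0542), without normalization (0.95, adjusted p = 0.385) and without a slide term (1.04, adjusted p = 0.0768). Against control the value was -0.56 (95% interval -1.10 to -0.03, adjusted p = 0.297) at 18 µg. It was 0.01 (95% interval -0.56 to 0.58) at 54 µg and 0.36 (SE 0.25, adjusted p = 0.524) at 162 µg. In the 162 against 18 µg comparison all 4 heart muscle genes (Myh6, Actc1, Tnnt2, Ryr2) were higher as well, with a median of 1.03, and none was called. Their part in the result was not tested.

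Entpd2, which prefers ATP over ADP and so leaves ADP behind, had its lowest values at 18 µg. Controls had 1.61, 1.05, 1.45, 1.61 and 1.02, and lungs at 18 µg ran from -0.50 through 0.28 to 1.00, so that 6 of 6 lay below every control. The log2 fold change of -0.94 (SE 0.27, adjusted p = 0.0934 in limma) did not pass the threshold. At 54 and 162 µg it was -0.28 (SE 0.29) and -0.28 (SE 0.27), and these groups overlapped the controls. With 1 array left out, the value at 54 µg ran from -0.57 (without replicate 5 at 54 µg) to -0.10 (without replicate 4 at 54 µg). At 162 µg it ran from -0.56 (without replicate 5 at 162 µg) to -0.17 (without control replicate 3). Without the 4 arrays of low signal it was -0.64 at 54 µg and -0.12 at 162 µg.

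Entpd5, an enzyme of the endoplasmic reticulum that acts on UDP and GDP, had control values of 1.03, 0.65, 0.80, 0.78 and 0.46. At 18 µg its lungs ran from -0.54 through 0.05 to 0.32, again with 6 of 6 below every control, while 4 of 5 at 54 µg and 5 of 6 at 162 µg did. Its log2 fold changes of -0.69 (SE 0.20, adjusted p = 0.0864 in limma), -0.55 (SE 0.21, adjusted p = 0.43) and -0.58 (SE 0.20, adjusted p = 0.0989) missed the threshold. A second Entpd5 probe gave -0.52, -0.32 and -0.46. Entpd2 and Entpd5 were thus the 2 members of 9 whose lungs at 18 µg did not overlap the controls, against 3.4% of all expressed genes. At 54 µg no member was so separated, against 3.3%, and at 162 µg Entpd8 was, against 8.2%. Without the 4 arrays of low signal, 3 members were called at 18 µg (Entpd2, Entpd5 and Entpd8) and 3 at 54 µg (Enpp3, Entpd5 and Entpd8). The share of all genes called in that setting was not computed.

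Enpp3, a pyrophosphatase known as CD203c on basophils and mast cells, had negative changes at each dose, none of them called. Its log2 ratio was -0.96 ± 0.27 (SD, n = 5) in controls. Lungs given 18 µg had -1.15 ± 0.35 (SD, n = 6), those given 54 µg -1.49 ± 0.35 (SD, n = 5), and those given 162 µg -1.41 ± 0.45 (SD, n = 6). At 162 µg the log2 fold change of -0.58 (SE 0.14) had an adjusted p of 0.0185 in limma but a size of 1.49-fold. At 18 and 54 µg it was -0.41 (adjusted p = 0.148) and -0.72 (adjusted p = 0.0636). On slides that held a control it was below that control in 11 of 11 exposed lungs, which shared controls as above. It was well above background on 5 of 5, 3 of 6, 3 of 5 and 4 of 6 arrays. The 3 expressed genes of a 5-gene mast cell and basophil list had changes from -0.16 to -0.10 at 162 µg, none called.

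The remaining members gave small values. Entpd4, of the Golgi and lysosomal compartment, had log2 fold changes of -0.12 (SE 0.14), 0.09 (SE 0.15) and 0.26 (SE 0.14) at 18, 54 and 162 µg, and its second probe gave 0.00, -0.07 and 0.26. Entpd6, which is partly secreted, had 0.12 (SE 0.12), -0.10 (SE 0.12) and 0.12 (SE 0.12), with 95% intervals that stayed between -0.36 and 0.37. Enpp1, which makes pyrophosphate from ATP, was not well above background on any array of any group, so no fold change is given.

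**Figure D2:**
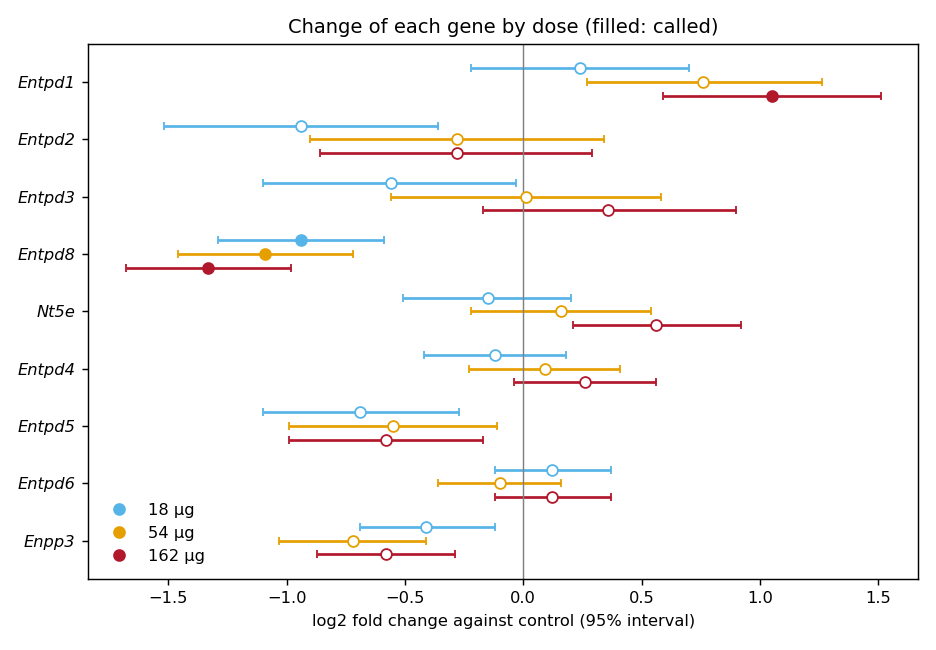
Log2 fold change against control with its 95% interval (horizontal axis) for the 9 expressed members (vertical axis), by dose. Filled points were called. Entpd8 is filled at all 3 doses, from -0.94 to -1.33, and Entpd1 at 162 µg, at 1.05.

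Lung is a mixture of cells, and in bulk RNA fewer cells of a type and less RNA per cell cannot be told apart. Markers of airway epithelium were read beside the lower members, and no association between them was computed. All 8 ciliated cell genes were lower than in controls at each dose, with a median of -0.73, -0.28 and -0.74, and 0, 0 and 3 of them were called in limma (at 162 µg Rsph1, Tppp3 and Ccdc39), while 4, 2 and 4 had an unadjusted p under 0.05. Without normalization 6 of the 8 were lower at 54 µg and none was called. In the Cy5 channel alone 4, 0 and 6 were called lower, and without the 4 arrays of low signal 3, 1 and 4. Over the control lungs the mean log2 ratio of that list ran from 3.75 to 4.12, and over the lungs given 18, 54 and 162 µg from 2.15 to 4.30, from 2.91 to 3.90 and from 1.85 to 3.82. All 4 measured club cell genes had negative changes at each dose as well, with Cyp2f2 called at 162 µg. Their part in the values of Entpd8, Entpd2 and Entpd5 was not tested.

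Beside Entpd1, all 7 endothelial genes were higher at 162 µg, by 0.04 to 0.33 with a median of 0.19. None of them was called there or had an unadjusted p under 0.05. At 18 µg all 7 were higher too, with a median of 0.22 and 1 called. At 54 µg 6 of 7 were, with a median of 0.01 and none called. With median centring 2 of the 7 were higher at 18 and at 162 µg. At 162 µg the other lists were as follows. Neutrophil genes were higher in 6 of 7 with a median of 0.64, none called. Of 8 alveolar macrophage genes 7 were higher, or 4 with median centring, and the scavenger receptor Marco was called at 1.51. Of the B cell genes, the complement receptor Cr2 was called lower at -1.02 (adjusted p = 0.00491 in limma) and Ms4a1, which encodes CD20, at -0.89 (adjusted p = 0.0126). Each lay below every control in 6 of 6 lungs, and 8.2% of all expressed genes did not overlap the controls in either direction. Among the remaining lists, 1 of 5 eosinophil genes (Ear6, 0.81), 1 of 4 recruited monocyte genes (Arg1, 1.76) and 1 of 4 type I alveolar genes (Pdpn, 1.04) were called, all higher. No gene was called in limma of 5 T cell, 6 type II alveolar, 5 fibroblast, 4 smooth muscle, 3 mesothelial and 4 heart muscle genes, of which 1, 0, 3, 1, 1 and 0 had an unadjusted p under 0.05. Their part in the rise of Entpd1 was not tested.

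Other genes of extracellular nucleotide signalling were counted from lists by role. Of 55 expressed genes, 2 were called higher and 1 lower at 18 µg, none at 54 µg in limma, where 11 had an unadjusted p under 0.05, and 5 higher and 3 lower at 162 µg. Of all 16434 expressed genes, 104 were called higher and 234 lower at 18 µg, 36 and 22 at 54 µg, and 545 and 580 at 162 µg. With median centring 1 was called higher and 2 lower at 162 µg, and without normalization none of the 55 was called at any dose. Without the 4 arrays of low signal 1 was called at 54 µg, and at the highest dose 7 were called higher and 4 lower. Among 4 adenosine receptors, all of which had positive changes at 162 µg, Adora1, the A1 receptor, was called at 1.57 (SE 0.27, adjusted p = 0.00227). It lay above every control in 6 of 6 lungs at 162 µg, where 8.2% of all expressed genes did not overlap the controls in either direction. Its change at 18 µg was -0.28. Adora3 had 1.21 (SE 0.44, adjusted p = 0.13), Adora2b 0.40 and Adora2a 0.30.

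Among 13 expressed other ectoenzymes, 2 rose at 162 µg. Alpl, the tissue-nonspecific alkaline phosphatase that also removes phosphate from AMP, rose by 1.40 (SE 0.20, adjusted p = 0.000698 in limma). Ada, which converts adenosine to inosine, rose by 0.77 (SE 0.15, adjusted p = 0.00523). Both lay above every control in 6 of 6 lungs, and both calls were lost with median centring. Of all expressed genes, 8.2% did not overlap the controls at 162 µg, in either direction.

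Of the ATP and UTP receptors, P2ry2 rose by 1.00 (SE 0.20, adjusted p = 0.00691 in limma) and P2rx6 fell by 0.75 on the log2 scale (adjusted p = 0.0113) at 162 µg, out of 7 expressed P2Y and 7 P2X receptors. Of 9 expressed genes of ATP release, the channel gene Calhm2 fell by 0.64 (adjusted p = 0.0105). With median centring the calls of P2ry2 and P2rx6 were lost. That of P2rx6 was also lost with normexp background correction and, like that of Calhm2, in the Cy5 channel alone, and Calhm2 was not called in the deposited table. Of 8 kinases of adenosine and nucleotides, Nme1 rose at 18 µg (0.80, adjusted p = 0.0384) and 162 µg (0.73, adjusted p = 0.027), and Nme2 at 18 µg (0.74, adjusted p = 0.00655). At 54 µg Nme1 had 0.78 (SE 0.20, adjusted p = 0.148 in limma) and was not called. With median centring, in the Cy5 channel alone and in the deposited log2 table neither Nme1 nor Nme2 was called. Over all scalings the change at 18 µg came down to 0.11 for Nme1 and 0.07 for Nme2. Ak8, an adenylate kinase of motile cilia, fell at 18 µg (-1.14, adjusted p = 0.046) and 162 µg (-0.99, adjusted p = 0.0363), and neither call held in the deposited table. None of 7 nucleoside transporter genes was called at any dose in limma (1, 0 and 0 had an unadjusted p under 0.05), and their changes lay between -0.50 and 0.27.

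**Figure D3:**
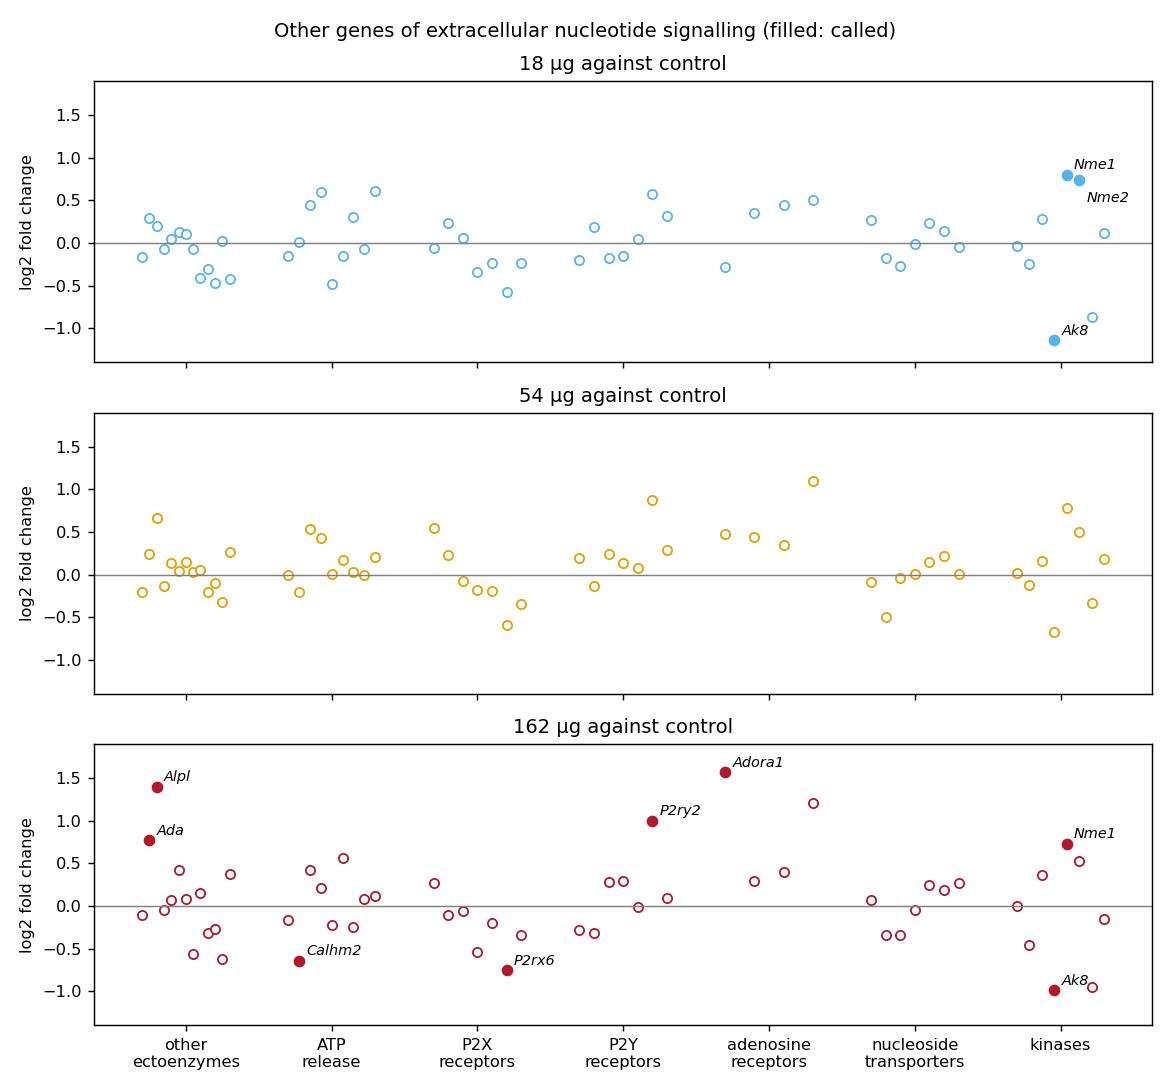
Log2 fold change against control (vertical axis) of the 55 expressed genes of extracellular nucleotide signalling, grouped by role (horizontal axis), with 1 panel per dose. Filled, named points were called, and they number 3, 0 and 8 at 18, 54 and 162 µg. Of all expressed probes 1.46%, 0.23% and 5.02% were called at these doses.

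The genes whose pattern over the arrays was most like that of the called members were found by Pearson r of log2 ratios among 16113 genes, as a description with no test, since arrays share dose and slide. For Entpd1 they were Pard6b (r = 0.907), Kcne4 (0.891), Tc2n (0.886), Tmem11 (0.881, over 20 arrays) and Pdcd6ip (0.866). After removal of group means these r were 0.894, 0.857, 0.872, 0.852 and 0.82, so the likeness lay mostly between lungs of the same dose. For Entpd8 they were Kcnip4 (0.888), Ttc33 (0.88), Sgpp1 (0.877, over 21 arrays), Pla2r1 (0.861) and Cnrip1 (0.85), and after removal of group means 0.761, 0.656, 0.74, 0.796 and 0.793.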

How the data were processed

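Lung RNA of 22 mice was measured on 22 two-colour Agilent arrays. The authors deposited intensity values per spot, median pixel signals of both channels without background subtraction or normalization, as the scanner software Feature Extraction (version 10.7.3.1, per the file headers) gives them. They also deposited normalized log2 ratios, 1 per probe, whose normalization is not given in the sources used here. These served as an alternative.

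Outlier spots were left out. Log2 ratios of Cy5 to Cy3 were loess-normalized within arrays (span 0.3) and replicate spots were reduced to their median. RefSeq accessions named 26413 probes. Without background subtraction, differences of dim probes can be understated. The normexp correction with an offset of 50 gave smaller changes of Entpd8. They were -0.79, -0.97 and -1.18 at 18, 54 and 162 µg. The added offset itself shrinks log ratios of dim probes, so this setting cannot show whether differences were understated. Dose and slide were fitted in limma 3.58.1 (R 4.3.3) over all 22 arrays. Slide was read from the array barcode, and p was adjusted by Benjamini-Hochberg over 55681 probes. The threshold for expression was the mean of 308 negative control spots plus 3 standard deviations, both after trimming 5%. A gene was read by its brightest probe. The script was tested on simulated data. All 10 members are named. Of the pathway lists, each gene called against control is named, and of the genes most like a called member, 5. 1 cell type gene is not reported here. The members and lists were chosen with earlier results of these data known. Alternatives covered background correction, normalization, slide terms, filters, probes and single arrays. The number of arrays limits the precision. Each mouse had 1 array, so p-values measure the spread between mice within slides together with that of labelling and array.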

Additional observations from a re-analysis of the deposited data

How the results depend on the processing

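The direction of Entpd8 held at every dose under each alternative run, with log2 fold changes against control between -1.09 and -0.71 for 18 µg, -1.32 and -0.86 for 54 µg, and -1.55 and -1.13 for 162 µg. The scalings themselves moved the median of all genes at 18, 54 and 162 µg, by -0.59, -0.27 and -0.47 without normalization, by -0.25, -0.19 and -0.27 with median centring and by 0.27, 0.15 and 0.20 in the Cy5 channel alone. The number of members called moved from 1 at 18 µg to 0 in the Cy5 channel alone, without normalization and with only the groups compared, and to 3 with slide as a random block. At 54 µg it moved from 1 to 0 in the deposited log2 table, with median centring, without normalization and without a slide term, and to 2 with only the groups compared. At 162 µg it moved from 2 to 1 with median centring and to 0 without normalization. There it was 3 in the Cy5 channel alone (with Nt5e at 0.77), in the deposited table (with Entpd5 at -0.61) and with slide as a random block (Entpd5, Entpd8 and Nt5e, without Entpd1). Between 162 and 18 µg it moved from 3 to 1 in the deposited table and without a slide term, and to 0 with median centring and without normalization. Leaving out the 4 arrays of low signal gave 3 members at 18 µg and 3 at 54 µg. Keeping only the slides with a control is the same fit, since the slide term takes up the array left on each other slide. The setting thus cannot separate low signal from the slides without a control. For the alternatives, the share of all probes called was not computed. Both were chosen after seeing the data. The cause of these shifts was not tested.

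Enpp1 was not compared across settings, being near background. None of the changes that reversed was called. Entpd1 at 18 µg became -0.03 without normalization and -0.13 without a slide term. Entpd3 at 54 µg became -0.02 in the deposited table, -0.10 with median centring, -0.22 without a slide term, -0.24 without the dim arrays, -0.36 with only the groups compared and -0.12 with slide as a random block. Entpd4 became -0.06 with median centring and -0.07 without normalization at 162 µg, 0.00 on its other probe at 18 µg, and at 54 µg -0.05 without the dim arrays, -0.04 with only the groups compared and -0.07 on its other probe. Entpd6 became -0.09 and -0.11 at 162 µg and -0.08 and -0.23 at 18 µg with median centring and without normalization. At 54 µg it became 0.06 without normalization and 0.03 with only the groups compared, where Nt5e became -0.05. The cause was not tested.

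With 1 array left out in turn, members called ranged from 0 to 3 for 18 µg, from 0 to 3 for 54 µg, from 2 to 5 for 162 µg and, between 162 and 18 µg, from 0 (without replicate 1 at 162 µg) to 4. The highest count came without replicate 5 at 54 µg, except at 162 µg, where it came without replicate 5 at 162 µg, and there 4 members were called without replicate 3 at 54 µg. Entpd8 and Entpd1 at 162 µg kept their calls in 22 of 22 fits, at -1.47 to -1.17 and 0.91 to 1.15. Entpd8 at 54 µg, at -1.19 to -0.96, lost its call in 6 fits, those without control replicates 1 (-0.96), 3 (-1.06) or 5 (-1.11) or replicates 1 (-1.01), 2 (-1.06) or 4 (-1.02) at 54 µg. Between 162 and 18 µg, Entpd1 lost its call in 9 fits (0.60 to 0.96 over all fits) and Entpd3 in 11 (0.78 to 1.14). Entpd3 at 54 µg ranged from -0.17 to 0.19 and Entpd4 at 54 µg from 0.00 to 0.18.

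The sample titles give replicate numbers as labels and state no pairing. Same-numbered arrays of different groups deviated together with r over 0.1 in 20 of 31 pairs, against 40 of 150 pairs with other numbers. On different slides 10 of 20 same-numbered pairs did, against 40 of 157 of all such pairs. On the same slide 20 of 24 pairs did. Of 22 arrays, 12 correlated best with their own number and 16 with their own slide. With the replicate block in place of slide, 2 members were called at 18 µg (Entpd5 and Entpd8), 1 at 54 µg, 3 at 162 µg (Entpd1, Entpd8 and Nt5e) and 3 between 162 and 18 µg, and Entpd3 at 54 µg became -0.22.

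The number of arrays and the low signal of Entpd8 and Enpp3 limit these values.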
